A study of Homo sapiens with 6 samples.

Results

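HCC827-GR and PC9-GR are the resistant ends of the same drug selection run in 2 different lung cancer lines, and their messenger RNA levels are set against each other here. They were taken by their titles, as 2 of the 6 libraries of the series, and the genes described are the 10638 of 21463 in the files that reached at least 10 CPM (counts scaled for library size and composition) in either library. HCC827 and PC9 are established human non-small cell lung cancer lines, and both carry the EGFR mutation labelled E19Del, an in-frame deletion in exon 19 of the receptor. Gefitinib, which blocks the EGFR kinase reversibly, was raised stepwise over 90 days in RPMI-1640 medium with 10% serum to give the sublines labelled GR. The drug concentration that halved viability was 0.016 to 0.07 µM before selection and 4.288 to 12.485 µM after it, given as ranges over all 3 lines of the study with no value for a single line. The labels do not say whether a subline is 1 clone, how many cells founded it, or whether drug was present when RNA was taken. Untreated parental HCC827 and PC9 served as the comparison of the same lines before selection, and the pair of H1975 libraries (L858R/T790M, with and without osimertinib selection) was used for scaling and as a further reference level.

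EGFR is a receptor tyrosine kinase that, once mutated in this way, drives the ERK and AKT pathways without much need for ligand, which is why such tumours depend on it. Cells that survive its inhibition are known to change receptors, to acquire bypass signals, or to lose epithelial character in the process called epithelial-mesenchymal transition, in which the repressors ZEB1 and ZEB2 shut down junction genes and matrix and cytoskeletal genes are switched on. Whether sublines that reach resistance under 1 drug resemble each other is the question that the comparison addresses.

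Each condition is 1 library, so no difference has a replicate check, no p-value is given, and an interval covers counting error only. The HCC827-GR library held 29366085 reads in exons and the PC9-GR library 24463011, and 3 reads, taken as the floor for a count of 0, correspond to 0.113 and 0.125 CPM. Differences are log2 ratios of HCC827-GR over PC9-GR after 1 CPM was added to both, which understates the ratio of low genes, and a gene is called at 2-fold. Reads that mapped to 1 place made up 90.8% and 91.7% of the 2 libraries, intron reads numbered 6.05 and 6.15 per 100 exon reads, and mitochondrially encoded genes took 6.62% and 6.86% (3.32% and 6.47% in the parental libraries). The 15 reference genes held 0 called higher and 1 lower (YWHAZ, -1.08), with a median of -0.08. Of 13 lung epithelial tumour markers 10 were measured, and their summed level was 5542 CPM in HCC827-GR and 7954 CPM in PC9-GR, against 14765 and 9100 CPM in the parental libraries. KRT7 stood at 2746 and 2248 CPM, while the surfactant genes SFTPC and SFTPA1 had 0 reads in both resistant libraries. Of 14 leukocyte markers 2 were measured (CD68 and LAPTM5), with PTPRC at 5 and 10 reads and a summed level of 179 and 292 CPM over the list. Of 10 endothelial markers 1 was measured (EGFL7), and the list summed to 7.58 and 36.6 CPM. Of 12 fibroblast markers 1 was measured (COL1A1, 19.6 and 17.5 CPM), and the list summed to 28.5 and 19.5 CPM, with PDPN and POSTN at 0 reads in both. In bulk RNA, fewer cells of a kind and less RNA per cell cannot be told apart.

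A large part of the transcriptome differed between the resistant lines. Of the 10638 genes, 1998 (18.8%) were at least 2-fold higher in HCC827-GR and 1793 (16.9%) were at least 2-fold lower, 35.6% in all, with a median ratio of 0.04. The 2-fold shares are the background for the list counts between the resistant lines. At 16-fold, 191 genes (1.8%) were higher and 258 (2.43%) lower. Genes just above the level threshold were HSF4, POLG2 and FN3K, each with 10.0 CPM and 267 reads in HCC827-GR, and those just below it were KISS1, SLC16A13 and FAM110A, each with 9.98 CPM and 240 reads in PC9-GR. Intron reads, which come mostly from unspliced RNA and were not used to call genes, went the same way in the same 2 libraries. Of 1813 higher genes with at least 20 intron reads, 95.4% had a positive intron ratio, with a median of 1.42. Of 1649 lower genes, 96.1% had a negative one, with a median of -1.48, and among genes within 2-fold 49.1% were positive.

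**Figure D1:**
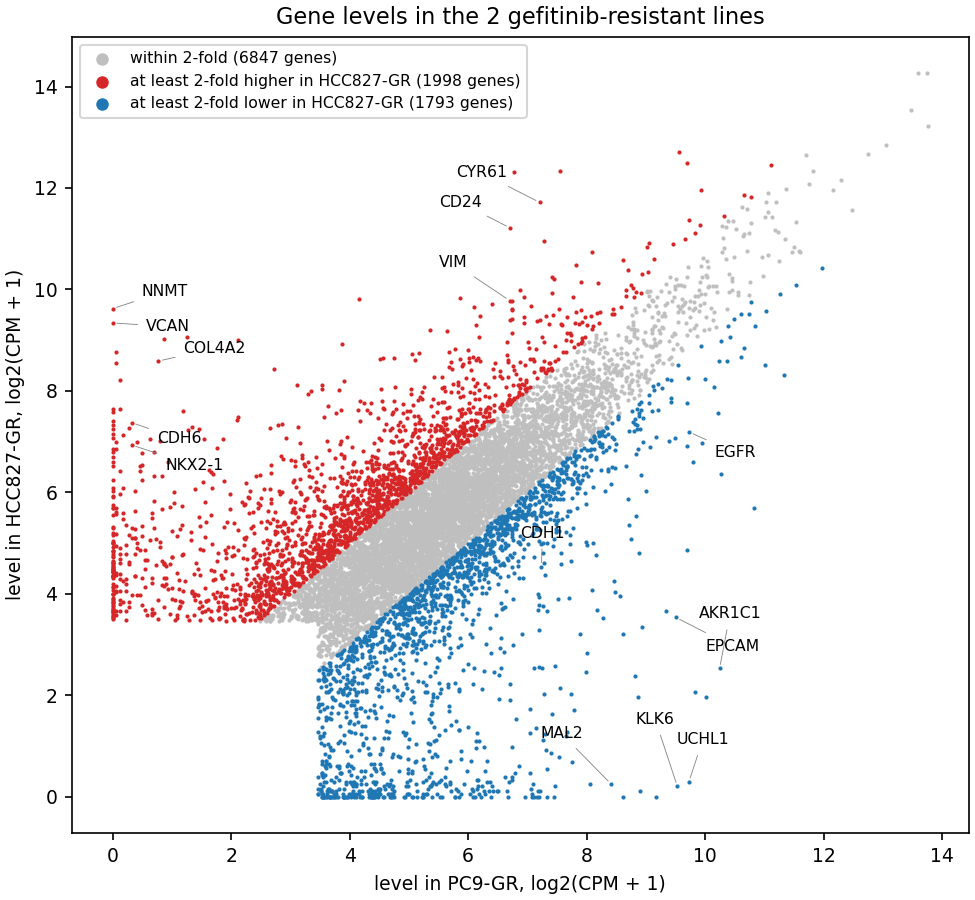
Level of each of the 10638 genes in PC9-GR (x) and HCC827-GR (y), both as log2(CPM + 1), with 1 point a gene and 1 library an axis. Red marks the 1998 genes at least 2-fold higher and blue the 1793 at least 2-fold lower in HCC827-GR; NNMT and VCAN sit on the left edge with 0 reads in PC9-GR, and UCHL1, KLK6 and MAL2 sit near the bottom edge.

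The widest differences were nearly on or off. NNMT, a methyltransferase of nicotinamide, stood at 787 CPM in HCC827-GR (20987 reads) and at 0 reads in PC9-GR, at least 6310-fold higher. VCAN, which encodes the matrix proteoglycan versican, stood at 647 CPM against 0 reads, 5189-fold higher by the same floor (lower bound 4220). BASP1, a membrane-associated protein of neurons and tumours, had 297 CPM against 2 reads. In the other direction UCHL1, a neuronal ubiquitin hydrolase, had 0.225 CPM in HCC827-GR and 846 CPM in PC9-GR. KLK6, a secreted kallikrein protease, had 0.15 and 739 CPM, and its neighbour in the family KLK5 had 0 reads and 390 CPM. ADAMTS12, a secreted metalloprotease, had 0 reads against 575 CPM, 5109-fold lower by the same floor (lower bound 4154). These genes were already far apart in the parental pair: the parental log2 ratio was 7.96 for NNMT, 7.27 for VCAN, -8.53 for UCHL1 and -9.06 for ADAMTS12. KLK6 was an exception in size, with 34.7 CPM in parental HCC827 and a parental ratio of -3.99. In all, 123 genes had at least 10 CPM in HCC827-GR and at most 3 reads in PC9-GR, of which 55 showed this in the parental pair too. The reverse held for 160 genes, again with 55 in the parental pair, and 85 of the 160 had more than 3 reads in parental HCC827. Of the 3791 called genes 14.7% had under 80% uniquely mapping reads, as did 14.6% of all measured genes, and such genes (CFI, MMP24 and TIMP3 among the 15 extremes on each side) are uncertain.

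The resistant lines stood further apart than their parents. Over the 11021 genes with 10 CPM in any of the 4 libraries, 3938 (35.7%) differed 2-fold between the resistant lines and 3267 (29.6%) between the parental lines. The spread of the ratios (SD over genes) was 1.61 against 1.39, and the Pearson correlation of log2 levels across genes was 0.62 against 0.71. Across the same genes the resistant ratio and the parental ratio, which share no library but share the lines, had a correlation of 0.74. Of the 3791 genes called between the resistant lines, 2032 (53.6%) differed 2-fold the same way between the parents, 1683 (44.4%) were within 2-fold there, and 76 (2.0%) differed 2-fold the other way. Of 3030 genes called between the parents (28.9% of 10476), 1942 (64.1%) were called the same way after selection and 1014 (33.5%) were within 2-fold after it. The 2 lines had moved by unequal amounts: HCC827-GR differed 2-fold from its parent in 1865 genes (18.1% of 10298) and PC9-GR in 403 (4.07% of 9898).

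**Figure D2:**
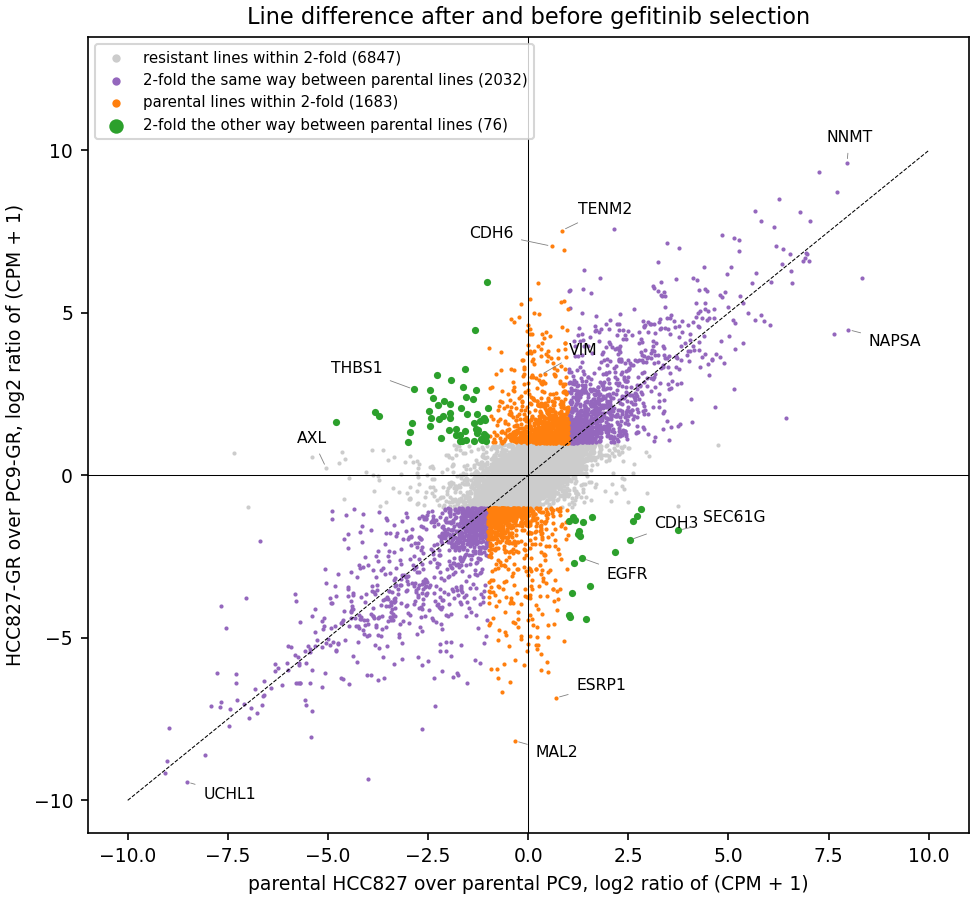
Log2 ratio of HCC827 over PC9 before selection (x) and of HCC827-GR over PC9-GR after it (y) for the 10638 genes, with 1 point a gene and the diagonal dashed. Purple points (2032) differed 2-fold the same way in both pairs, orange points (1683) between the resistant lines only at that threshold, and green points (76) in opposite directions; MAL2 and ESRP1 lie far down near the centre line, and AXL at 0.23 on the y axis after -5.04 on the x axis.

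The target of the drug was itself among the genes that changed order. EGFR (chr7:55019021-55211628 in hg38) stood at 145 CPM in HCC827-GR and 848 CPM in PC9-GR, 5.87-fold lower (95% counting interval 5.67 to 6.07), whereas parental HCC827 had 2379 CPM and parental PC9 941 CPM. PC9-GR thus held an EGFR level near that of its parent, and HCC827-GR held the lowest of the 4. ERBB2, the preferred partner of the other family members, had 127 and 56.0 CPM (1.17, and 1.35 between the parents). ERBB3, which signals to AKT when paired, had 11.2 and 70.4 CPM (-2.55, against 0.07 between the parents), with 57% of its reads unique, so that its level is uncertain. Per length, EGFR made up 80.01% of the family's summed TPM (reads per transcript length, scaled to a common sum) in PC9-GR and 35.8% in HCC827-GR, where ERBB2 made up 60.0%. Of 4 family receptors 3 were measured, 1 called higher and 2 lower, with a median over the 4 of -1.06 against 0.71 between the parents.

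Ligands and other receptors also separated the lines. Of 8 measured EGFR ligands 1 was higher and 4 lower. TGFA, a ligand of EGFR, had 1 read in HCC827-GR (0.0375 CPM) and 76.8 CPM in PC9-GR, after 17.9 and 94.8 CPM in the parents. AREG, another EGFR ligand, had 13.8 and 34.2 CPM (-1.25) where parental HCC827 had been higher (208 and 30.8 CPM, 2.72). NRG1, the ligand of ERBB3, went the other way with 93.1 and 8.4 CPM (3.32, and 3.70 between the parents). The bypass receptors most often named in resistance did not separate the sublines at 2-fold: MET had 219 and 247 CPM (-0.17), and AXL had 387 and 331 CPM (0.23). AXL reached that similar level from unlike starts, 4.29 CPM in parental HCC827 and 173 CPM in parental PC9 (-5.04). Of 31 other receptor tyrosine kinases 18 were measured, 7 higher and 5 lower. INSR, the insulin receptor, had 45.8 and 2.16 CPM (3.89), KIT 11.7 CPM against 0 reads (3.66), and FGFR3 23.2 and 0.956 CPM (3.63). EPHA1 had 0.0375 and 30.2 CPM (-4.91) and MST1R, the receptor related to MET, 3.23 and 32.1 CPM (-2.97). Of 14 measured growth factors outside the family 6 were higher and 2 lower, among them PROS1, a ligand of AXL-type receptors, at 215 and 19.5 CPM (3.40).

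Genes that ERK activity induces held more lower than higher members in HCC827-GR. Of 18 measured members 8 were lower, 2 higher and 8 within 2-fold, and of 19 between the parents 9 were lower and 1 higher, with medians of -0.70 and -0.71 over the 22 members. DUSP6, the phosphatase that limits ERK, had 0.488 CPM in HCC827-GR and 22.2 CPM in PC9-GR (-3.96), after 51.3 and 58.5 CPM in the parents (-0.19). SPRY4, a feedback inhibitor of receptor signalling, had 0.15 and 10.8 CPM (-3.36). DUSP4 had 8.29 and 235 CPM (-4.67), a difference also seen between the parents (-3.55). The 2 higher members were MYC, a growth-driving transcription factor, at 394 and 136 CPM (1.53) and EPHA4 at 52.9 and 14.7 CPM (1.78). PIK3CA (-0.59) and NF1 (0.70), which are mutated in some lung tumours, and CD274, which encodes the checkpoint ligand PD-L1 (0.76), were within 2-fold. BRAF (-1.05) had 50% unique reads and is uncertain.

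Epithelial surface genes were the list with the lowest median in HCC827-GR, over all members. Of 22 genes of the epithelial surface and of apical trafficking 17 were measured, and 13 were lower and 3 higher, where 16.9% and 18.8% of all measured genes were. The median over the 22 was -2.92. The lists were chosen with earlier results of these data known, so the rank and the shares are descriptions and were not tested. Between the parents, where 14.7% of all measured genes were higher and 14.2% lower, 5 of 21 members were higher and 3 lower and the median was 0.48. MAL2, an apical transport protein, had 5 reads in HCC827-GR (0.188 CPM) and 340 CPM in PC9-GR, while the parents had 346 and 438 CPM. ST14, the membrane protease matriptase, had 1.35 and 155 CPM after 334 and 238 CPM, and PRSS8, the protease prostasin that acts with it, 0.413 and 62.2 CPM after 64.4 and 51.8 CPM. RAB25, an epithelial GTPase of recycling endosomes, had 0.075 and 80.2 CPM, and AP1M2, the epithelial subunit of a sorting adaptor, 0.975 and 105 CPM. These 5 genes were high in 3 of the 4 libraries and under 2 CPM in HCC827-GR. The 3 higher members were CD24, a surface glycoprotein, at 2373 and 103 CPM (4.51), the transcription factor ELF3 at 199 and 63.6 CPM (1.63), and the mucin MUC16 (1.06).

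Of 20 factors that set epithelial identity and splicing 16 were measured, 7 lower, 2 higher and 7 within 2-fold. The median was -0.43 over the 16 measured and -1.86 over all 20, where it was -0.53 between the parents. ESRP1, which directs epithelial splicing, had 0.188 and 136 CPM (-6.85) after 257 and 160 CPM in the parents (0.68). GRHL2, a factor that maintains junction genes, had 0 reads in HCC827-GR and 101 CPM in PC9-GR, after 60.0 and 95.4 CPM. Counted against the floor of 3 reads it was 902-fold lower (lower 95% counting bound 733). EHF had 0.15 and 83.2 CPM (-6.19) and OVOL1 0 reads and 26.0 CPM (-4.76). ESRP2, the close relative of ESRP1, was within 2-fold at 30.3 and 44.0 CPM (-0.52). Of 11 measured desmosome genes 8 were lower and 1 higher, with a median of -1.34 over the 12 members (-0.35 between the parents). JUP, or plakoglobin, had 75.3 and 213 CPM (-1.49), PKP2 4.24 and 90.9 CPM (-4.13) and PKP3 13.1 and 93.3 CPM (-2.75), while DSC3, a desmosomal cadherin, had 61.2 CPM against 2 reads (5.84). Of 18 measured tight junction genes 6 were lower and 2 higher, with a median of -0.27 over 25 members (0.36 between the parents). LSR, which marks the corners where cells meet, had 14.3 and 145 CPM (-3.25) and CLDN1 12.7 and 145 CPM (-3.42), whereas CGNL1 had 132 and 1.91 CPM (5.51).

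The cadherins showed an exchange of family members. CDH1, or E-cadherin, the adhesion protein of epithelial junctions, had 22.1 CPM in HCC827-GR and 150 CPM in PC9-GR (-2.70) after 466 and 212 CPM in the parents (1.13). EPCAM, an epithelial adhesion protein, had 10.6 and 726 CPM (-5.97) after 432 and 740 CPM (-0.78). CDH2, or N-cadherin, had 90.5 and 8.52 CPM (3.26) after 1.02 and 5.01 CPM. CDH6, a cadherin of kidney and of some carcinomas, had 165 CPM against 6 reads (7.05) after 0.509 CPM and 0 reads. CDH13 had 23.6 CPM against 0 reads (4.62), with 0 reads in both parents. Per length, CDH2 and CDH6 made up 35.4% and 35.9% of the summed TPM of the 9 cadherins listed in HCC827-GR, and CDH1 8.62%, whereas CDH1 made up 65.4% and CDH3 30.6% in PC9-GR. CTNNA1, which links cadherins to actin, separated the lines before and after selection, at 579 and 49.0 CPM in the resistant and 836 and 50.7 CPM in the parental libraries. Over the 15 measured genes of adherens junctions 6 were higher and 5 lower, and the median over 17 was -0.12 (0.15 between the parents).

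Mesenchymal genes were higher in HCC827-GR in part of the list. Of 22 measured members (of 30) 12 were higher and 4 lower, with a median of 0.79, and of 16 between the parents 1 was higher and 7 lower, with a median of -0.02. VIM, the intermediate filament vimentin, had 878 and 103 CPM (3.08) after 39.0 and 31.6 CPM. LOXL2, an enzyme that crosslinks collagen, had 833 and 84.0 CPM (3.29), and MYL9, a contractile light chain, 131 and 2.62 CPM (5.19). FN1, the matrix protein fibronectin, was not called: it had 456 CPM in HCC827-GR and 770 CPM in PC9-GR (-0.75), after 120 and 125 CPM. S100A4 went against its use as a mesenchymal marker, with 2.89 and 464 CPM (-6.90) and a parental ratio of -5.58. Of 10 repressors of epithelial genes 3 were measured. ZEB1 had 25.7 and 3.04 CPM (2.73) and ZEB2 32.4 and 0.541 CPM (4.44), each near or under 1 CPM in both parents. SNAI2 had 28.2 and 18.6 CPM (0.58), TWIST1 1.05 and 1.79 CPM, and SNAI1 2.18 and 1.37 CPM, so that ZEB1 and ZEB2 were the members called.

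**Figure D3:**
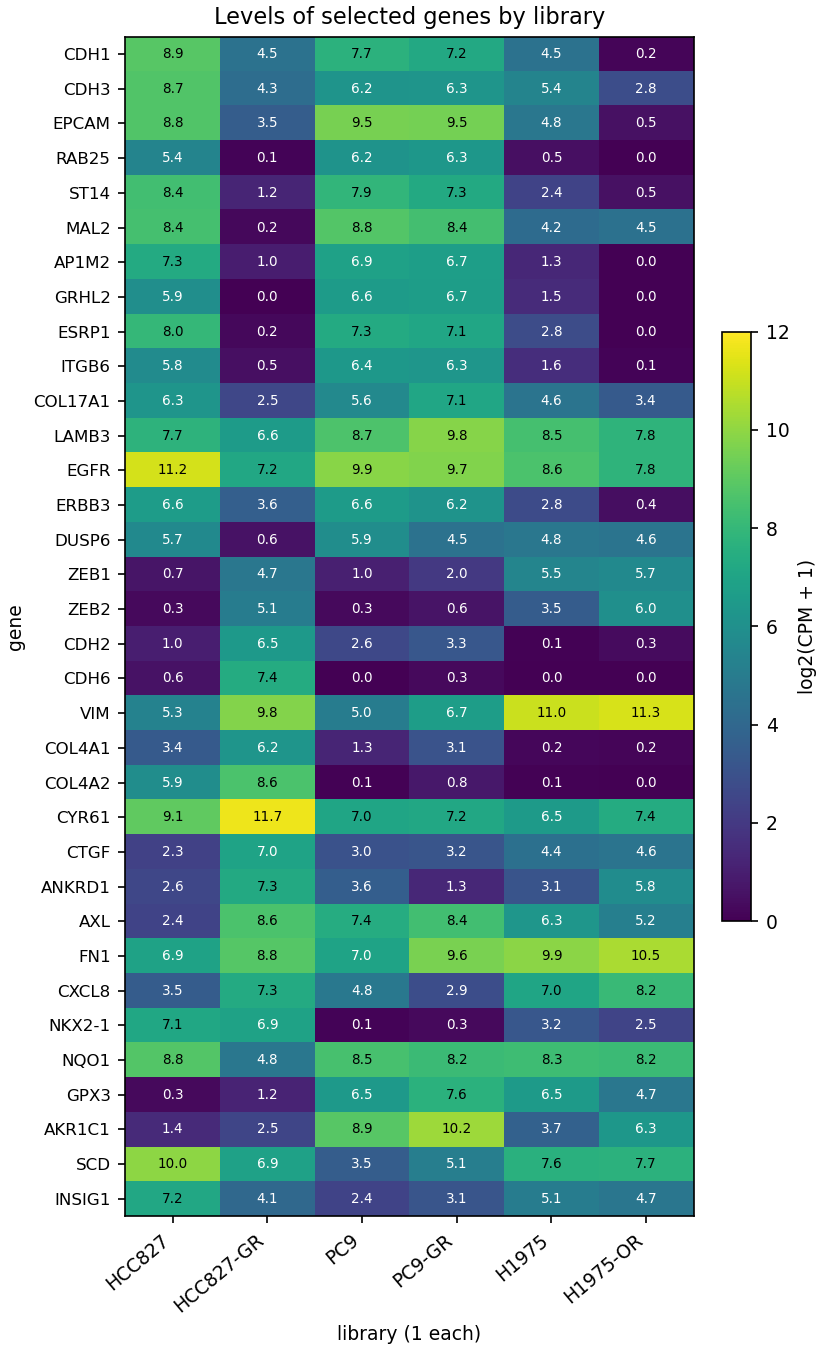
Level of 34 genes (rows) in the 6 libraries (columns, 1 each) as log2(CPM + 1), with the value in each cell and colour from 0 to 12; the genes were chosen after their values were seen. From RAB25 to ITGB6 the HCC827-GR column is low where HCC827, PC9 and PC9-GR are high (ESRP1 at 0.188 CPM against 257, 160 and 136). Both H1975 columns are also low in these rows, highest for MAL2 (17.1 and 21.4 CPM), with ESRP1 at 5.84 CPM in H1975 and 0 CPM in H1975-OR. CDH2, CDH6 and COL4A2 are high in HCC827-GR, and FN1 and AXL are high in both gefitinib-selected libraries.

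Promoters of 2 of these genes are shown because the ZEB and SNAIL repressors are known to bind the E-box letters CACCTG, and both genes were lost from HCC827-GR. The sequences are the 250 bases before the RefSeq start site in GRCh38.p14, read 5′ to 3′ in the direction of the gene, with CACCTG or its other strand CAGGTG in capitals. RAB25 (plus strand, chr1:156060910-156061159) held 1 match, 41 bases before the start site, and AP1M2 (minus strand, chr19:10587313-10587562) held 3, at 57, 27 and 15 bases before it.
RAB25: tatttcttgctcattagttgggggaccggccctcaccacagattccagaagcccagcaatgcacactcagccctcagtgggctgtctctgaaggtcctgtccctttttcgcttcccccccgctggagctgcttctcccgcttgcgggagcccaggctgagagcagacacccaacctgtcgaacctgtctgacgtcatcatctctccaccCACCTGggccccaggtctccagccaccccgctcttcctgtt
AP1M2: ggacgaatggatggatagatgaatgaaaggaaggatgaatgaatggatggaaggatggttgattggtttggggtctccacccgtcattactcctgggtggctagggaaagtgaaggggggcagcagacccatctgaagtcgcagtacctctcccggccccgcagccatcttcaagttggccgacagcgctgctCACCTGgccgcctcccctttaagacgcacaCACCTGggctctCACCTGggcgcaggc
The letters occur in 17.5% of 35116 RefSeq promoter windows of that length. They occurred in 7 of 21 epithelial and junction genes that were lower in HCC827-GR (33.3%). Among the other members of those lists they occurred in 12 of 39 (30.8%). Those others held higher genes, and also lower genes that were under 10 CPM in both resistant libraries. The difference between these shares was not tested. A match is a description of letters and was not tested as a site.

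Basement membrane genes were exchanged between the lines within families. Of 19 measured collagen genes 6 were higher and 8 lower, and the 6 chains of collagen IV, the sheet-forming collagen of basement membranes, split by pair. COL4A1 had 75.1 and 7.36 CPM (3.19) and COL4A2 384 and 0.707 CPM (7.82), while COL4A3 had 0 reads and 12.6 CPM, COL4A4 0.15 and 30.5 CPM, COL4A5 14 and 181 CPM and COL4A6 0.525 and 115 CPM (-6.25). Each pair of neighbouring chains was thus high in 1 of the 2 resistant lines. Between the parents COL4A2 (5.80), COL4A5 (-2.10) and COL4A6 (-4.63) differed in the same directions. COL4A3 (0.364 and 2.50 CPM) and COL4A4 (0.255 and 6.89 CPM) were under 10 CPM in both parents. COL17A1, the collagen of hemidesmosomes, had 4.84 and 137 CPM (-4.56) after 76.3 and 48.8 CPM. COL12A1, a fibril-associated collagen, had 202 and 22.7 CPM (3.10) after 3.35 and 19.98 CPM (-2.27).

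LAMB3 and LAMA3, chains of the epithelial laminin that hemidesmosomes bind, were lower in HCC827-GR. LAMB3 had 95.2 CPM in HCC827-GR and 892 CPM in PC9-GR (-3.21), and LAMA3 124 and 985 CPM (-2.98). Between the parents the ratio was -0.92 for LAMB3 and -2.73 for LAMA3. Per length, LAMB3 and LAMA3 took 26.7% and 10.1% of the summed laminin TPM in PC9-GR, and 8.05% and 3.58% in HCC827-GR, where LAMB1 (31.9%), LAMA5 (23.5%) and LAMC1 (21.4%) led. Over the 8 measured laminins 4 were lower and 1 higher (LAMA5, 697 and 202 CPM, 1.78). LAMA4, another lower chain, had 0.9 and 159 CPM (-6.39, and -7.31 between the parents). The integrins, which bind these and other matrix proteins, differed in both directions. ITGA6 had 80.6 and 1227 CPM (-3.91) and ITGB4, its partner in hemidesmosomes, 152 and 476 CPM (-1.64). ITGB6, an epithelial integrin that activates TGF-beta, had 0.413 and 77.1 CPM (-5.79), and ITGA2, a collagen receptor, 10.5 and 307 CPM (-4.74). Between the parents the ratio was -3.34 for ITGA6, -2.14 for ITGA2 and -0.60 for ITGB6. ITGA3 had 1343 and 415 CPM (1.69), and ITGA5, the fibronectin receptor, 333 and 92.1 CPM (1.84). In all 5 of 13 measured integrins were higher and 5 lower.

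Proteolysis and TGF-beta genes held members in both directions. Of 14 measured metalloproteinase and plasminogen activation genes 6 were higher and 5 lower, with a median of 0.06 over 23. MMP14, a membrane collagenase, had a ratio of -4.32 (-3.89 between the parents). Of 21 measured TGF-beta and BMP genes 7 were higher and 3 lower, with a median of 0.71 over 26 (0.06 between the parents). TGFBI, a matrix protein that TGF-beta induces, had 5737 and 822 CPM (2.80), and ID3, a BMP target, 106 and 8.15 CPM (3.54). ID4 went against the other inhibitors of its family, with 1.28 and 10.7 CPM (-2.37) after 16.8 and 2.99 CPM (2.16). Wnt pathway genes were more often lower: 10 of 20 measured were lower and 3 higher, as were 10 and 3 of 17 between the parents. SFRP1, a secreted Wnt inhibitor, had 0 reads against 44.8 CPM (-5.52), and WNT5A 26.7 and 0.166 CPM (4.57).

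Factors and targets of YAP and TEAD, the transcription pair that responds to cell density and tension, held more higher than lower members in HCC827-GR. All 22 members were measured, and 12 were higher and 3 lower, with a median of 1.43, whereas between the parents 3 of 20 were higher and 4 lower, with a median of -0.45. CYR61, a matricellular protein, had 3362 CPM in HCC827-GR and 147 CPM in PC9-GR (4.51), after 532 and 130 CPM. CTGF, its relative, had 125 and 7.94 CPM (3.81) after 4.0 and 7.03 CPM (-0.68). ANKRD1, a nuclear ankyrin protein, had 156 and 1.54 CPM (5.95) after 4.91 and 11.1 CPM (-1.04). For CTGF and ANKRD1 the order of the lines turned between the pairs. Among the factors, YAP1 was within 2-fold (0.07), WWTR1, which encodes TAZ, had 322 and 111 CPM (1.52), and TEAD4 had 19.8 and 59.0 CPM (-1.53). AMOTL2, LATS2 and PTPN14, which restrain YAP and are also its targets, were higher (2.60, 1.33 and 1.87). The other lower members were NT5E (30.7 and 209 CPM) and AMOTL1 (64.3 and 164 CPM).

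The promoters of CTGF and ANKRD1 carry the letters GGAATG, the core that TEAD proteins are known to bind, and are shown with that core in capitals. Both lie on the minus strand and run for 250 bases up to the RefSeq start site in GRCh38.p14. CTGF (chr6:131951373-131951622) held 3 matches, at 169, 104 and 95 bases before the start site, and ANKRD1 (chr10:90921088-90921337) held 2, at 220 and 128 bases.
CTGF: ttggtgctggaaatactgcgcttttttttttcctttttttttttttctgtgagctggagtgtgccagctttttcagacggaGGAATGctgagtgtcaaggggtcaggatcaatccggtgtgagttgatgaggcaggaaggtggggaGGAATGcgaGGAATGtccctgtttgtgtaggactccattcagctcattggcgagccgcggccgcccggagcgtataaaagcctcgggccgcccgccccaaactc
ANKRD1: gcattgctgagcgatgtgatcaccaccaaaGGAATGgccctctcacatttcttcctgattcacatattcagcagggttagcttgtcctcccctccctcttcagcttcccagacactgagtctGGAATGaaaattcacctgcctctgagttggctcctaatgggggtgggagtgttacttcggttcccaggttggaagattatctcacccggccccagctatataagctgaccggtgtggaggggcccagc
GGAATG or its other strand CATTCC occurred in 11.9% of the 35116 windows. Of the list's members with an entry, 5 of 9 that were higher in HCC827-GR held it (CTGF, ANKRD1, NUAK2, PTPN14 and TGFB2) and 1 of 7 others did (YAP1). The others included the factors YAP1, TEAD2 and TEAD3, so targets were partly set against factors. No match was tested as a site.

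Antioxidant genes were lower in HCC827-GR. NRF2 is the transcription factor that induces glutathione, thioredoxin and NADPH-producing enzymes under oxidative stress. Of 27 measured members of that list (of 29) 16 were lower and 2 higher, with a median of -1.55, and between the parents 9 were lower and 1 higher, with a median of -0.34. SLC7A11, the cystine importer, had 14.5 and 375 CPM (-4.60), and GCLM, which sets the rate of glutathione synthesis, 57.4 and 414 CPM (-2.83). GPX3, a secreted glutathione peroxidase, had 1.28 and 199 CPM (-6.46), and TXNRD1, thioredoxin reductase, 362 and 2057 CPM (-2.50). NQO1, a quinone reductase, had 26.1 and 286 CPM (-3.40) after 445 and 367 CPM (0.28), so that only the resistant pair passed 2-fold. The 2 higher members were HMOX1 (1.36) and GPX4 (1.19). Among 20 measured aldo-keto reductases and aldehyde dehydrogenases 7 were higher and 8 lower. The aldo-keto reductases that NRF2 also induces were low in HCC827-GR: AKR1C1 had 4.76 and 1210 CPM (-7.72), AKR1C3 27.0 and 474 CPM (-4.09) and AKR1B10 0.225 and 81.3 CPM (-6.07). AKR1C1 was already far apart between the parents, at 1.71 and 478 CPM (-7.47), and was higher in each resistant line than in its parent. ALDH1A1, a retinal dehydrogenase, had 34.5 and 0.208 CPM (4.88), after 0.145 and 0.337 CPM in the parents.

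For 2 lower members that held it, the promoter is shown with the letter pattern of the antioxidant response element in capitals. The pattern was searched as TGACNNNGC or its other strand GCNNNGTCA. GCLM (minus strand, chr1:93909431-93909680) held it on the other strand, 34 bases before the RefSeq start site in GRCh38.p14, and TXNRD1 (plus strand, chr12:104215529-104215778) held it 99 bases before its first listed start site.
GCLM: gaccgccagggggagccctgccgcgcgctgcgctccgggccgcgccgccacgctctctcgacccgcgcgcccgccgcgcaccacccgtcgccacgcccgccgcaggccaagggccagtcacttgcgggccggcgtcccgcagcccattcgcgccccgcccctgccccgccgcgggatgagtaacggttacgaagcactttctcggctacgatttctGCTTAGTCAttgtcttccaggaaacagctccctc
TXNRD1: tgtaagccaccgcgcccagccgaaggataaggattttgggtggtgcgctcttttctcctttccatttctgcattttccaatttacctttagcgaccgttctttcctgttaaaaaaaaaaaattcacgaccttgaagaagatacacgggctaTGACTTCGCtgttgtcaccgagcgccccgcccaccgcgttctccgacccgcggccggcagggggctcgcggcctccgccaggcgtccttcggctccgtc
The letters were in 10.9% of all windows, in 5 of 13 lower members (38.5%) and in 3 of 11 other members (27.3%). NQO1 and GPX3 were among the lower members without a match. A match was not tested as a site.

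Immune and inflammatory lists held more higher than lower members in HCC827-GR, most of all the interferon list. Of 17 measured type I interferon response genes 15 were higher and 1 lower, with a median of 1.47 over 32, and between the parents all 23 measured members were higher, with a median of 2.24. The distance was thus smaller after selection than before. ISG15, a ubiquitin-like interferon product, had 53.8 and 16.1 CPM (1.68) after 81.4 and 6.45 CPM (3.47). The lower member was OASL (0.638 and 11.1 CPM, -2.89). Of 19 measured MHC and checkpoint genes 7 were higher, 1 lower and 11 within 2-fold, with PSMB9 of the immunoproteasome at 14 and 0.998 CPM (2.91) and the lower member NLRC5, an activator of MHC class I genes, at 6.90 and 40.3 CPM (-2.39). Between the parents 9 of 18 measured MHC and checkpoint genes were higher and 0 lower. Of 24 measured NF-kB and inflammatory genes 12 were higher and 7 lower, and of 23 between the parents 7 were higher and 8 lower. CXCL5, a neutrophil attractant, had 133 CPM against 0 reads (7.07), CXCL1 110 and 0.624 CPM (6.09) and CXCL8 161 and 6.24 CPM (4.49). CCL2, a monocyte attractant, had 30.8 CPM against 0 reads (4.99). Between the parents the ratio was 6.18 for CXCL5, 1.79 for CXCL1, -1.32 for CXCL8 and 0.15 for CCL2. CSF1, the macrophage growth factor, had 221 and 26.0 CPM (3.04) and IL6 42.0 and 5.11 CPM (2.82). IL1A (0.9 and 22.3 CPM, -3.62), IL11 (12 and 71.8 CPM, -2.49) and CXCL16 (1.5 and 56.5 CPM, -4.52) were lower.

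Most sterol genes that had been higher in parental HCC827 were within 2-fold between the resistant lines. Of 21 measured genes of cholesterol synthesis and uptake 2 were higher and 3 lower (IDI1, SQLE and SREBF2), with a median of 0.13 over 24, whereas 17 of 23 had been higher in parental HCC827, with a median of 1.45. INSIG1, the sterol sensor partner, had 15.8 and 7.86 CPM (0.93) after 144 and 4.38 CPM (4.75). SQLE, squalene epoxidase, had 19.8 and 76.7 CPM (-1.90) after 32.0 and 22.3 CPM (0.50). The fatty acid list behaved alike in its median, 0.22 against 0.78, with 4 of 22 higher and 5 lower, and 10 and 4 of 22 between the parents. SCD, the stearoyl desaturase, had 117 and 33.7 CPM (1.76) after 994 and 10.5 CPM (6.43). PLIN2, the lipid droplet coat protein, kept a wide distance at 193 and 1.29 CPM (6.4, and 5.07 between the parents). Of 28 measured glycolysis and hypoxia genes 9 were higher and 2 lower, among them ADM, the hypoxia-induced adrenomedullin, at 207 and 11.5 CPM (4.06). All 36 nuclear oxidative phosphorylation genes were measured, with 0 higher and 6 lower and a median of -0.12. The 13 mitochondrially encoded genes had a median of -0.14, with MT-CYB higher (1.34) and MT-ND4L lower (-1.06), against -1.01 between the parents, where 7 were lower.

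Keratins told the lines apart by type. Of 13 measured keratins 8 were lower and 2 higher, with a median of -1.16 over 18 (-0.47 between the parents). The simple keratins KRT7, KRT8, KRT18 and KRT19 made up the greater part of keratin TPM in both libraries, KRT7 alone 55.4% in HCC827-GR and 36.4% in PC9-GR. Of these, KRT18 was lower at 757 and 2080 CPM (-1.46) and the others were within 2-fold (0.29 for KRT7, 0.34 for KRT19, -0.86 for KRT8). Basal and stress keratins were low in HCC827-GR and expressed in PC9-GR: KRT5 at 0 reads and 66.8 CPM, KRT6A at 4.20 and 448 CPM, KRT6B at 0.713 and 184 CPM, and KRT17 at 1.54 and 141 CPM. KRT4, a keratin of wet stratified epithelium, was the reverse at 114 CPM against 0 reads (6.85). KRT17 in PC9-GR stood above its parent (15.1 CPM), while KRT4 and KRT6B differed as much between the parents (6.94 and -6.60).

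Lung lineage genes separated HCC827-GR from PC9-GR as they had the parents. NKX2-1, the factor of lung epithelial identity, had 121 CPM in HCC827-GR and 0.249 CPM in PC9-GR (6.61) after 140 and 0.0963 CPM. NAPSA, an aspartic protease that NKX2-1 controls, had 28.9 and 0.333 CPM (4.49) after 289 and 0.144 CPM (7.98). SFTA3, a neighbour of NKX2-1 on chromosome 14, had 30.9 CPM against 0 reads (5.00). In all 6 of 28 alveolar and airway genes were measured, 5 higher and 1 lower (SOX9, a progenitor factor, at 39.3 and 99.8 CPM). Cancer germline antigens, genes of the testis that tumours reactivate, had 5 of 14 measured higher and 9 lower in both pairs. With uniquely mapping reads XAGE1B, the highest member, fell from 6.69 to 0.94 and XAGE1A from 6.60 to 0.00. The count of higher members is therefore uncertain. MAGEC1 had 2 reads against 100 CPM (-6.55) and MAGEA10 0 reads against 56.6 CPM (-5.85), while PRAME (17.3 and 0.166 CPM, 3.97) and BRDT (24.6 and 0.0832 CPM, 4.56) were higher. MAGEA3 had 15.9 CPM in HCC827-GR and 0.327 CPM in its parent, against 271 and 269 CPM in the PC9 libraries. Of 9 measured S100 proteins, small calcium-binding proteins, 7 were lower and 0 higher, led by S100A14 at 0.188 and 264 CPM (-7.80). Of 5 measured neuroendocrine and neural genes 3 were higher and 1, UCHL1, lower; of 4 measured HOX genes 2 were higher and 0 lower (HOXB2, 3.56); and of 9 measured stem cell markers 3 were higher and 5 lower.

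Genes of drug handling, growth and survival held members in both directions, where 18.8% of all measured genes were higher and 16.9% lower. Of 11 measured ABC transporters 4 were higher and 3 lower. ABCB1, the efflux pump P-glycoprotein, had 52.7 CPM in HCC827-GR (1.60 in its parent) and 0 reads in both PC9 libraries. ABCC2 had 3.41 and 187 CPM (-5.41) after 97.8 and 100 CPM, and ABCG2, which is known to export gefitinib, had 1.24 and 20.3 CPM (-3.25). Of 34 measured cell cycle genes 2 were higher, 6 lower and 26 within 2-fold, with a median of -0.28. Their lower share was near that of all genes. Among 18 measured genes of the G1 list 5 were higher and 3 lower. CDK4, a kinase of G1 progression, had 5185 and 186 CPM (4.80) and was as far apart between the parents (4235 and 192 CPM, 4.45). Its neighbours on chromosome 12, OS9 and TSPAN31, had ratios of 5.53 and 5.05, and 5.28 and 4.29 between the parents; they were chosen after their values were seen. Of 11 measured BCL2 family genes 3 were higher (BMF, PMAIP1 and BCL2L1, 2.51, 2.34 and 1.13) and 1 lower (BID, -2.82). The ER stress and ATF4 list had 7 of 24 higher and 2 lower, and the metallothioneins 3 of 4 higher and 1 lower, with MT2A at 871 and 106 CPM (3.03).

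**Figure D4:**
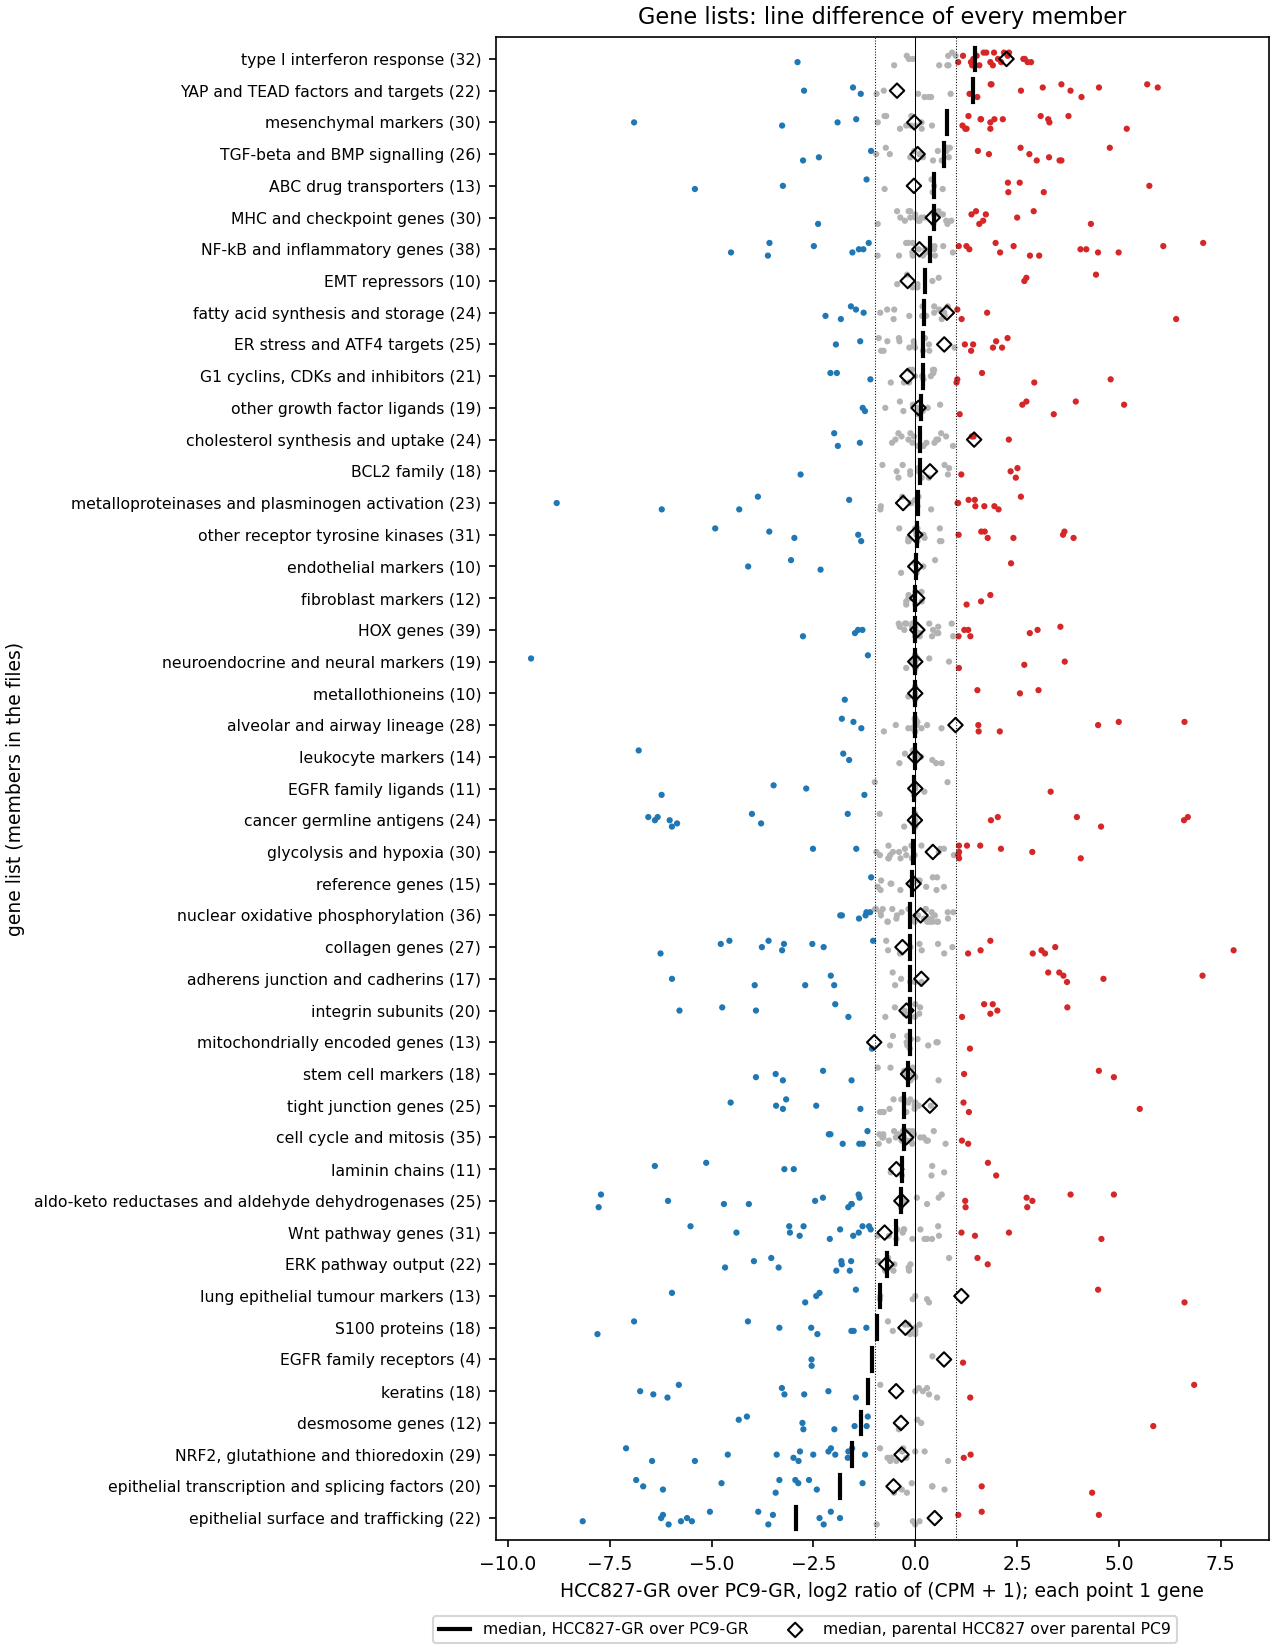
Log2 ratio of HCC827-GR over PC9-GR for every member of the 47 gene lists (1 point a gene, red or blue past 2-fold in either direction, members under 10 CPM included), with the list's median as a bar and its median between the parental lines as an open diamond. The epithelial surface list lies lowest at -2.92 with its diamond at 0.48, and the YAP and TEAD list stands at 1.43 with its diamond at -0.45.

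Some genes that were alike in the parents stood far apart between the resistant lines, and the cause was not tested. Among genes within 1.5-fold between the parents, the highest included PTH1R, the receptor of parathyroid hormone, at 67.0 CPM against 3 reads (5.92). IGFBP5, which binds insulin-like growth factors, had 33.3 and 0.291 CPM (4.73), and PPARGC1A, a coactivator of mitochondrial genes, 21.6 CPM against 0 reads (4.50). The lowest included ADGRF1, an adhesion receptor, at 0.3 and 106 CPM (-6.37), GALNT3, an enzyme of mucin-type glycosylation, at 0.113 and 70.3 CPM (-6.0), LCP1, an actin bundler, at 11.7 and 647 CPM (-5.67), and MUC4, a membrane mucin, at 0.638 and 65.3 CPM (-5.34). In each of these 7 genes PC9-GR was within 2-fold of its parent, and HCC827-GR was more than 16-fold from its own. A large change within a line follows from how the genes were picked.

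The 76 genes whose order turned comprised 55 that became higher in HCC827-GR and 21 that became lower. EDN1, the vasoconstrictor endothelin, had 89.8 and 13.6 CPM (2.63) after 3.38 and 23.2 CPM (-2.46). MDGA1, a membrane glycoprotein, had 81.8 and 14.8 CPM (2.39) after 0.145 and 4.91 CPM (-2.37), and MME, the peptidase neprilysin, 101 and 12.5 CPM (2.93) after 0.255 and 3.8 CPM. THBS1 (2.65 after -2.86) had 53% unique reads and is uncertain. Among those that became lower, CDH3, or P-cadherin, had 18.5 and 76.5 CPM (-1.99) after 426 and 72.8 CPM (2.53). SEC61G, a subunit of the protein translocon, had 72.1 and 235 CPM (-1.69) after 2372 and 176 CPM (3.75), and VOPP1 165 and 441 CPM (-1.41) after 2328 and 381 CPM (2.61). SEC61G (chr7:54752250-54759974) and VOPP1 (chr7:55436056-55572988) flank EGFR in hg38.

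The ratio also varied with position. Over 281 windows of 10 megabases with at least 10 measured genes the median ratio ran from -1.47 to 2.51. The window of chromosome 7 that holds EGFR, from 50 to 60 megabases, had a median of -1.45, with 10 of 13 genes lower and 0 higher, against 0.95 between the parents. Its median change within a line was -2.52 from HCC827 to HCC827-GR and -0.08 from PC9 to PC9-GR. The highest window was 70 to 80 megabases of chromosome 8, where 19 of 20 genes were higher, and it stood at 2.23 between the parents. By chromosome, 14 had a median of 0.73 with 130 of 354 genes higher and 21 lower, 20 had 0.76, and 13 had -0.66, each in the direction of the parental median (0.88, 0.43 and -0.68). On chromosome 18 the sign turned, from -0.63 between the parents to 0.41. There the windows from 30 megabases to the end had within-line medians of -1.29 to -0.85 in PC9 and of -0.06 to 0.28 in HCC827. On chromosome 2 the median went from -0.14 to -0.57, with 219 of 696 genes lower and 53 higher.

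**Figure D5:**
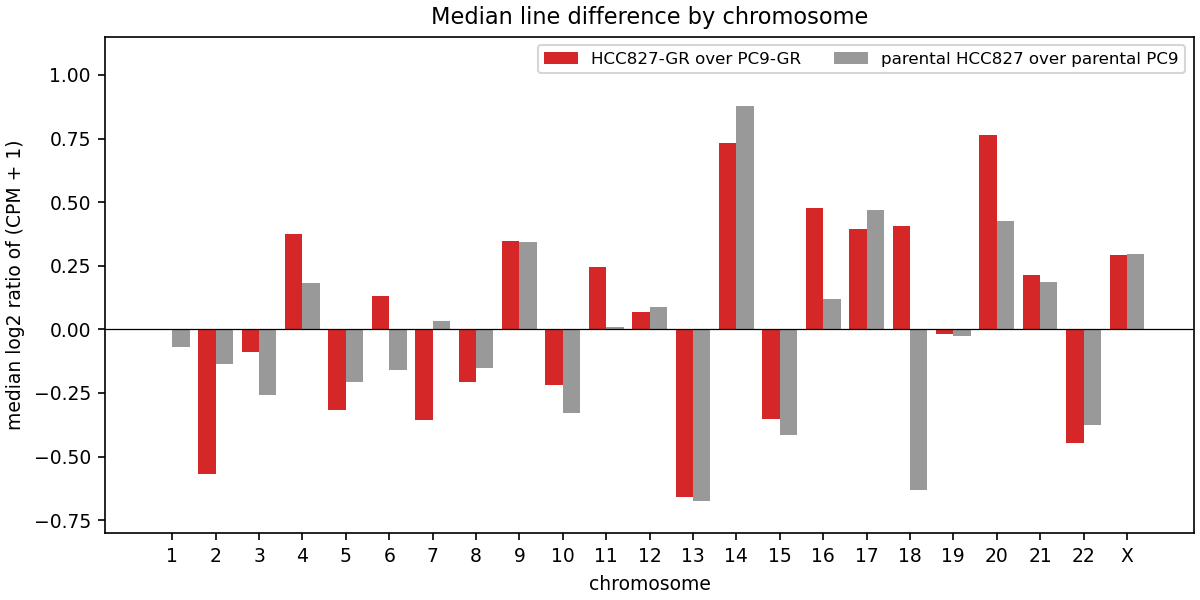
Median log2 ratio of the measured genes of each chromosome for HCC827-GR over PC9-GR (red bars) and parental HCC827 over parental PC9 (grey bars), from 1 library each. Chromosomes 13, 14 and 20 have the same sign in both pairs, and chromosome 18 has 0.41 in red and -0.63 in grey.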

How the data were processed

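Stranded messenger RNA libraries were prepared from the 6 cell populations, per the labels' protocols, and per the submitters' processing notes Trimmomatic and Bowtie2 were used with hg38. Their versions, the counting tool and the annotation release were not given in the sources used here. The authors deposited, per the file headers, whole-number counts of total exon, uniquely mapping exon and intron reads per gene, unnormalized, and TPM. Total exon counts (21222102 to 29366085 per library) were scaled with the TMM factors of edgeR 4.0.16 (R 4.3.3) over the 6 libraries, and log2 ratios of CPM plus 1 were taken for genes of at least 10 CPM in either library of a pair. A gene was called at 2-fold, with no test, since each group is 1 library. Counting intervals are exact binomial (Clopper-Pearson, 95%), and a fold against 0 reads was computed against 3 reads in that library. TPM gave shares within gene families. The ratio step was tested on simulated counts.

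The members and the 47 gene lists (950 genes) were chosen with earlier results of these data known. Named genes were the 15 highest and 15 lowest, up to 6 of each list by absolute ratio, 20 set genes (EGFR, MET and others), and up to 10 each way that were within 1.5-fold, turned, or alike in direction between the parents; further list members were named after their values were seen. Promoters came from RefSeq (GRCh38.p14, the first entry of a symbol, chromosome 8 left out). The 12 alternatives changed scaling, reads, added CPM and filters. Some genes that the rule names are not reported here.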

Additional observations from a re-analysis of the deposited data

Results flagged for a closer look

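The difference between the lines turned its direction from the parental to the resistant pair in 76 genes: 55 were at least 2-fold higher in HCC827-GR and 2-fold lower in parental HCC827, against PC9, and 21 were the reverse. With 1 library a condition, the difference between the pairs was not tested. The leading genes higher in HCC827-GR were THBS1 (2.65 between the resistant lines and -2.86 between the parents, with 53% unique reads), EDN1 (2.63 and -2.46) and MDGA1 (2.39 and -2.37). The leading genes lower in HCC827-GR were ID4 (-2.37 and 2.16), CDH3 (-1.99 and 2.53) and SEC61G (-1.69 and 3.75).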

How the results depend on the processing

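No paired analysis was possible because each group is 1 library and no test was made. With 5 CPM added in place of 1, 49.4% of the called genes differed 2-fold the same way between the parents, 49.3% were within 2-fold there and 42 turned. With a minimum of 50 CPM, 1071 genes were higher and 872 lower, 51.6% went the same way, 46.4% were within 2-fold and 39 turned. Library size alone gave 1730 higher and 2024 lower (46.1% of called genes higher, against 52.7%), with the median of all genes at -0.08 in place of 0.04, and the deposited TPM gave 1512 and 1709. Over the 12 alternatives the called share was 30.1% to 38.1%, and 23.8% to 32.1% between the parents. Among the 318 genes picked by the naming rules, none past 2-fold changed sign, nor did any list median past 2-fold. Genes named outside those rules were not put through the alternatives. XAGE1A (0.00), XAGE1B (0.94) and IGF2_1 (0.22) were no longer 2-fold with uniquely mapping reads, ENO2 with library size alone (0.96) or TPM (0.98), BRAF with TPM (-0.95) or 5 CPM added (-0.92), and TM7SF2, HSF4 and FN3K with 5 CPM added. The median of the EGFR receptors fell inside 2-fold with unique reads (-0.96) or 0.5 CPM added (-0.92), and that of the epithelial factors with 5 CPM added (-0.83). Genes with few reads in 1 library are limited by depth, since 3 reads are 0.0986 to 0.144 CPM.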
